A study of Homo sapiens with 12 samples.

Results

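The 54 genes described here are the ribosome biogenesis genes and MYC targets of a set chosen by gene name: MYC itself, nucleolar, rRNA-processing and RNA polymerase I genes, and polyamine and nucleotide synthesis genes known as MYC targets, with no ribosomal proteins. A gene was kept if it stood in 1 row of the expression table with at least 1 FPKM (a read level scaled for gene length and sequencing depth) in 3 or more of the 12 libraries. The set holds only genes that met this, out of 10465 rows. The same minimum gave the 9751 rows tested for differences, so all 54 were among them by choice. The member nearest to the minimum was UTP15, which averaged 1.26 FPKM and had 0.868 FPKM in its lowest library.

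RNA sequencing was done on neutrophils induced from HL-60, a promyelocytic leukaemia cell line known for its amplified MYC gene. The 4 groups of 3 libraries were treated for 24 hours. One group received 0.05 µg/mL AGEs together with 30 mmol/L D-glucose, one received the same glucose alone, one received 0.05 µg/mL AGEs alone, and the control received 0.05 µg/mL BSA. AGEs is the usual short form for advanced glycation end products, which are sugar-modified proteins, and BSA is bovine serum albumin. All groups come from 1 cell line, and the labels do not name the inducing agent. The glucose group carries no BSA on its label, so between glucose and BSA the added sugar and the missing albumin cannot be told apart, whereas AGEs with glucose and AGEs have no such difference on their labels.

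Ribosomes are built in the nucleolus. RNA polymerase I makes a long precursor rRNA, small nucleolar RNPs (snoRNPs) guide its methylation and pseudouridylation, and assembly factors cut and fold it into the small and large subunits. MYC is a transcription factor that binds E-box DNA with its partner MAX and is known to drive many of these genes, along with polyamine and nucleotide synthesis, in dividing myeloid precursors; the pathway is known to decline as granulocytes mature.

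FPKM sums ran from 220444 to 233854 per library, and read depth is unknown because FPKM keeps no counts. Correlations of log2(FPKM + 1) between libraries ran from 0.97 to 0.99 both within and between groups. In AGEs replicate 1, the deviations of genes from their own means followed transcript GC content with a Spearman rho of 0.70 across genes, against -0.25 to 0.08 in the other libraries, and limma gave it the lowest library weight, 0.18, followed by 0.42 for glucose replicate 3. Of 20 neutrophil markers, 14 were in the table and summed to between 1578 and 1732 FPKM per library, while FCGR3B, CXCR1, MMP9, LTF, LCN2 and MMP8 were not analysed here. Eosinophil and basophil genes, of which 8 of 14 were in the table, summed to more, between 2198 and 2793 FPKM.

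The promoters of the members were searched for CACGTG, the E-box that MYC and MAX are known to bind, because the set was named for MYC targets. RefSeq promoter windows of 300 bases on GRCh38.p14, from 250 before to 50 after a start site, were found for 44 of the 54 members in 55 windows. MYC, NOP58, NOLC1, RRP12, BOP1, RRP1B, RRS1, DDX18, POLR1E and IMPDH2 were not matched. CACGTG reads the same on both strands, and it stood in 22 of the 55 windows (40%), against 9.91% of 11001 windows of the genes tested and 7.26% of 35116 windows in all. It was in at least 1 window of 21 of the 44 matched members (47.7%), against 1020 of the 7624 tested genes with a window. Of its 26 occurrences 21 (80.8%) lay between 50 bases before and 50 bases after the start, against 39.0% among the genes tested. Median GC content of the windows was 63.7% for members and 64.7% for the genes tested. The related letters CACGCG, searched on both strands, were in 27.3% of member windows and 17.9% of those of the genes tested.

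The windows of 5 members are given below. Those of the polyamine synthesis enzymes SRM and ODC1, the snoRNP protein FBL and the large subunit helicase DDX21 hold the E-box, and that of the snoRNP protein NOP56 does not. The windows are printed 5′ to 3′ on the gene's strand, with CACGTG in capitals. SRM (chr1:11059969-11060268, minus strand) has 1 copy whose first base lies 199 bases before the start. ODC1 (chr2:10447963-10448262, minus strand) has copies at -29 and 6, and FBL (chr19:39846330-39846629, minus strand) has a copy at 7, with the start site as base 1. DDX21 (chr10:68956397-68956696, plus strand) has a copy at -31. ODC1 and DDX21 each have another window for a different start site, at chr2:10448278-10448577 and chr10:68955920-68956219, and these hold 0 copies. NOP56 (chr20:2652382-2652681, plus strand), the member with the smallest p-value under glucose, has none in this window.
SRM: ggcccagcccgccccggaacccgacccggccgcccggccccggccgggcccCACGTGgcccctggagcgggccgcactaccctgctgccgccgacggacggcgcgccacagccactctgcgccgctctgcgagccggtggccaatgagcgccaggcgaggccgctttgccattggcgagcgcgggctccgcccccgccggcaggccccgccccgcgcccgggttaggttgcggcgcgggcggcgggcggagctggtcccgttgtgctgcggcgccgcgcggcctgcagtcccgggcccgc
ODC1: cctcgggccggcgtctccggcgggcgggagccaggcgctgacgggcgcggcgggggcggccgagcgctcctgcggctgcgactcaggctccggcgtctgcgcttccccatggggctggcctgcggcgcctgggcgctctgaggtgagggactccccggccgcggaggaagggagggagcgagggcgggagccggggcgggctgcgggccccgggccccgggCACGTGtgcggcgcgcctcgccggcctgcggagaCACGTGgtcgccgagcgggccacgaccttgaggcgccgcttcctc
FBL: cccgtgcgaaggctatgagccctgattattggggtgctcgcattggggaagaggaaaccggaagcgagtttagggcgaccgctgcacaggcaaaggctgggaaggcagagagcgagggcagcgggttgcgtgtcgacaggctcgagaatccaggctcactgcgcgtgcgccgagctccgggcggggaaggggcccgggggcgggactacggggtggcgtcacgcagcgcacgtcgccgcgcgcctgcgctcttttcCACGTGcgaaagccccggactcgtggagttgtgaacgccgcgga
DDX21: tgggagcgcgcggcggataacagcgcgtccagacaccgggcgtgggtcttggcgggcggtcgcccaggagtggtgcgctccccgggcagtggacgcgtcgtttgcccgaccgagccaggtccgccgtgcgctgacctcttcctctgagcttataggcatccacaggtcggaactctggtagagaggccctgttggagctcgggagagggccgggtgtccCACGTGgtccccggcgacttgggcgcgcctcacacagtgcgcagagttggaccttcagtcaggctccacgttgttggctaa
NOP56: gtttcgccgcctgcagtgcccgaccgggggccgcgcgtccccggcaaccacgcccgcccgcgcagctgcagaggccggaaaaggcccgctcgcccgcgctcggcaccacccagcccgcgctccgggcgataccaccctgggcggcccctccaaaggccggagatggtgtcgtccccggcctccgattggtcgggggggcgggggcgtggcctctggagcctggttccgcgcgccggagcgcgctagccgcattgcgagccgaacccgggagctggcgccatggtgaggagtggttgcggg

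Under glucose alone, 51 of the 54 members (94.4%) had a log2 fold change above 0 against BSA, where 49.6% of all genes tested did. The shift was small, with a median log2 fold change of 0.16 over the members and -0.00 over all genes, and a range of -0.22 to 0.43. None of the 54 passed limma's test at a Benjamini-Hochberg adjusted p of 0.05, a threshold that 0.103% of all genes tested passed. At an unadjusted p under 0.05, 20 members were higher (37.0%, against 4.68% of all genes) and 0 were lower (against 5.34%). In 18 members every glucose library lay above every BSA library, which was so for 7.92% of all genes, and in 0 members every glucose library lay below (9.03% of all genes). Without AGEs replicate 1 and glucose replicate 3, the libraries of lowest weight, 48 members were above 0, against 47% of all genes, and every remaining glucose library lay above every BSA library in 28, against 16.1%. NOP56 then passed limma's test with an adjusted p of 0.0393, where 0.749% of all genes passed. In bulk RNA, fewer cells of a type and less RNA per cell cannot be told apart.

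**Figure D1:**
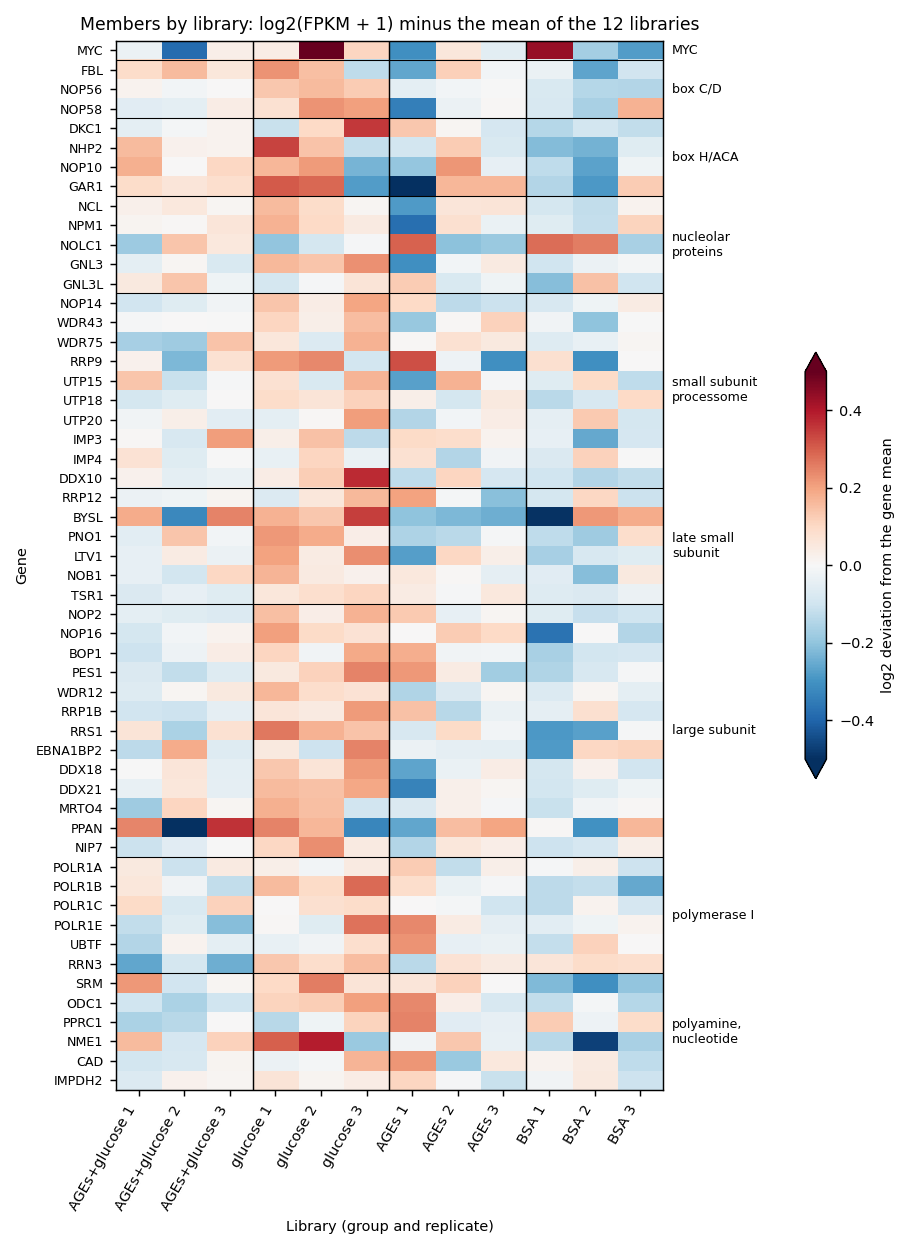
Each row is a member and each column a library, grouped as AGEs with glucose, glucose, AGEs and BSA; colour gives log2(FPKM + 1) minus the gene's mean over the 12 libraries, cut at 0.5. Most rows are red in the glucose columns, while GAR1 and other rows turn blue in AGEs replicate 1.

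In the map of members by library, the glucose columns hold most of the red cells. Averaged over members, the log2 deviation from the gene mean was -0.02, -0.05 and 0.01 with AGEs and glucose and 0.10, 0.10 and 0.09 with glucose alone. It was -0.04, 0.01 and -0.02 with AGEs, and -0.09, -0.07 and -0.04 with BSA. All glucose libraries lay above the other 9, which overlapped between AGEs with glucose and AGEs. Split at the median transcript length of 2411.5 nucleotides, the 27 shorter members averaged 0.15, 0.14 and 0.03 in the glucose libraries and -0.12, -0.13 and -0.01 in the BSA libraries. The 27 longer members averaged 0.05, 0.06 and 0.16 under glucose and -0.05, -0.01 and -0.06 under BSA. Glucose replicate 3 thus carried its excess in long transcripts and replicates 1 and 2 carried it in short ones, and BSA replicate 3 also differed from its group in this order; the part of this in the result was not tested. With a GC and length trend removed from each library, 51 members were above 0 and the median was 0.16.

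**Figure D2:**
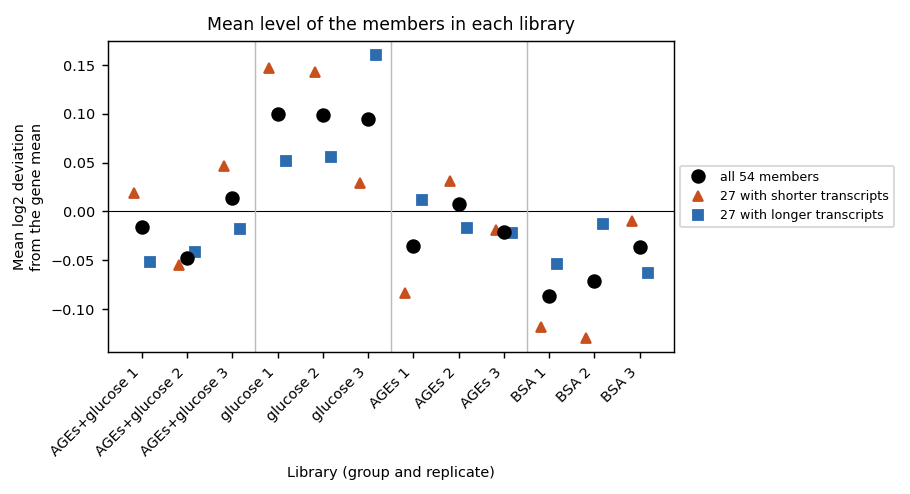
The vertical axis gives the mean log2 deviation from the gene mean for all 54 members (circles), the 27 with shorter transcripts (triangles) and the 27 with longer transcripts (squares) in each of the 12 libraries. The circles of the 3 glucose libraries sit near 0.10, and the 3 BSA circles sit between -0.09 and -0.04.

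Among the box C/D snoRNP proteins, which carry out rRNA methylation, all 3 members were above 0 under glucose, with a median of 0.21. NOP56, a core scaffold of this particle, had 21.1, 20.6 and 20.9 FPKM with AGEs and glucose, 23.0, 23.4 and 22.9 with glucose alone, 20.1, 20.6 and 20.8 with AGEs and 19.7, 18.8 and 18.8 with BSA. The glucose libraries were the highest, the BSA libraries the lowest, and neither overlapped with any other group. Its log2 fold change under glucose was 0.26 ± 0.05 (SE), with an adjusted p of 0.138 by limma, the smallest of any member. FBL, the methyltransferase, had 87.2, 91.3 and 85.1 FPKM with AGEs and glucose, 95.7, 90.8 and 74.7 with glucose alone, 68.1, 88.9 and 81.0 with AGEs and 79.8, 67.9 and 76.4 with BSA. Glucose overlapped with BSA through its lowest library, whereas every library with AGEs and glucose lay above BSA. NOP58, the other scaffold protein, had a log2 fold change of 0.19 under glucose with overlapping groups.

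All 4 box H/ACA proteins, which form the pseudouridylation particle, were above 0 under glucose, with a median of 0.22, and also above 0 in the other comparisons with BSA. DKC1, the pseudouridine synthase, had 14.3, 14.8 and 15.0 FPKM with AGEs and glucose, 13.7, 16.0 and 19.2 with glucose alone, 16.4, 14.9 and 14.0 with AGEs and 13.3, 13.9 and 13.5 with BSA. NHP2, an RNA-binding subunit, had 59.1, 53.7 and 53.6 FPKM with AGEs and glucose, 67.1, 58.6 and 48.6 with glucose alone, 49.5, 57.9 and 50.2 with AGEs and 45.4, 44.7 and 50.7 with BSA. NOP10, a small subunit that braces the synthase, had 190.5, 169 and 181 FPKM with AGEs and glucose, 189, 195 and 143 with glucose alone, 147, 197 and 163 with AGEs and 154, 139.5 and 166 with BSA. In all of these the glucose libraries were spread widely and overlapped with BSA, and the libraries with AGEs and glucose lay above BSA without overlap. NHP2 overlaps RMND5B on the opposite strand, and no source used here states whether counting used strand.

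Of the 5 nucleolar chaperones and GTPases, 4 were above 0 under glucose, with a median of 0.13. GNL3, the nucleolar GTPase nucleostemin, had 24.1, 25.2 and 23.6 FPKM with AGEs and glucose, 28.1, 27.7 and 29.5 with glucose alone, 20.0, 24.7 and 25.8 with AGEs and 23.2, 24.5 and 24.8 with BSA. Every glucose library exceeded all others, and the remaining groups overlapped. NCL, or nucleolin, had 92.5, 94.2 and 91.5 FPKM with AGEs and glucose, 102, 96.9 and 91.5 with glucose alone, 74.3, 94.8 and 94.9 with AGEs and 85.2, 83.3 and 92.0 with BSA. NPM1, the histone and ribosome chaperone nucleophosmin and the most abundant member, had 173, 172 and 179 FPKM with AGEs and glucose, 194, 184 and 177 with glucose alone, 132, 181 and 168 with AGEs and 164, 158 and 185 with BSA. Both overlapped between groups, and AGEs replicate 1 was the lowest library for each. NPM1 has 45 pseudogenes named after it, so its reads may be shared. NOLC1, a chaperone of snoRNPs, was the exception, with 18.6, 23.4 and 22.0 FPKM with AGEs and glucose, 18.3, 19.8 and 21.0 with glucose alone, 26.1, 18.2 and 18.5 with AGEs and 25.9, 25.5 and 18.8 with BSA. Its libraries split within AGEs and within BSA, and its log2 fold change of -0.22 ± 0.15 (SE) was the lowest of the members under glucose.

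The small subunit processome, which cleaves the precursor on the small subunit side, had 9 of its 10 members above 0 under glucose, with a median of 0.14. DDX10, an RNA helicase, had 2.79, 2.61 and 2.64 FPKM with AGEs and glucose, 2.83, 3.06 and 3.83 with glucose alone, 2.41, 3.02 and 2.52 with AGEs and 2.48, 2.36 and 2.42 with BSA. WDR43, a scaffold protein, had 16.0, 16.1 and 16.1 FPKM with AGEs and glucose, 17.4, 16.4 and 18.0 with glucose alone, 14.0, 16.1 and 17.5 with AGEs and 15.9, 13.9 and 16.1 with BSA. Both had every glucose library above every BSA library. NOP14, a core assembly factor, had 25.3, 26.0 and 26.8 FPKM with AGEs and glucose, 30.0, 27.9 and 31.3 with glucose alone, 29.2, 24.7 and 25.1 with AGEs and 25.6, 26.7 and 28.0 with BSA. For NOP14 glucose overlapped with BSA but not with AGEs and glucose. IMP4, which binds the box C/D snoRNA of this complex, had 15.0, 13.6 and 14.2 FPKM with AGEs and glucose, 13.8, 15.3 and 13.8 with glucose alone, 15.0, 12.7 and 14.0 with AGEs and 13.5, 15.5 and 14.2 with BSA, with all groups overlapping. The other members, WDR75, RRP9, UTP15, UTP18, UTP20 and IMP3, had log2 fold changes of 0.06 to 0.20 under glucose.

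All 6 late small subunit factors were above 0 under glucose, with a median of 0.19. TSR1, a GTPase-like maturation factor, had 8.63, 8.83 and 8.69 FPKM with AGEs and glucose, 9.52, 9.72 and 9.88 with glucose alone, 9.39, 9.08 and 9.49 with AGEs and 8.67, 8.60 and 8.91 with BSA. LTV1, which is removed before the subunit matures, had 22.4, 23.7 and 22.6 FPKM with AGEs and glucose, 26.7, 23.7 and 27.2 with glucose alone, 18.9, 24.9 and 23.6 with AGEs and 20.4, 21.7 and 22.1 with BSA. Glucose lay above BSA without overlap in both, and TSR1 was also lower in every library with AGEs and glucose than in every AGEs library. NOB1, the nuclease that makes the final cut, had 23.4, 22.6 and 26.0 FPKM with AGEs and glucose, 27.3, 24.9 and 24.5 with glucose alone, 25.1, 24.2 and 23.3 with AGEs and 23.2, 20.7 and 24.98 with BSA, and its groups overlapped. BYSL, PNO1 and RRP12, which act in processing and export, had log2 fold changes of 0.25, 0.22 and 0.08.

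All 13 large subunit factors were above 0 under glucose, with a median of 0.19. Of these, 8 had an unadjusted p under 0.05, against 4.68% of all genes, and 9 lay above BSA without overlap, against 7.92%. RRS1, which helps to load the small ribosomal RNA of the large subunit, had 22.6, 19.2 and 22.8 FPKM with AGEs and glucose, 26.1, 24.5 and 23.9 with glucose alone, 20.3, 23.1 and 21.3 with AGEs and 17.5, 17.7 and 21.4 with BSA. Its log2 fold change under glucose was 0.38 ± 0.09 (SE), with an adjusted p of 0.216 by limma. The glucose libraries were the highest of the 12, and BSA replicate 3 reached into the AGEs range. NOP16, a nucleolar assembly factor, had 11.4, 12.1 and 12.4 FPKM with AGEs and glucose, 14.2, 13.1 and 12.9 with glucose alone, 12.2, 13.4 and 13.1 with AGEs and 9.22, 12.2 and 10.9 with BSA. DDX21, an RNA helicase that also acts on RNA polymerase I transcription, had 51.3, 54.7 and 51.0 FPKM with AGEs and glucose, 58.8, 58.3 and 60.3 with glucose alone, 41.5, 53.5 and 53.0 with AGEs and 49.3, 50.4 and 51.8 with BSA. Glucose exceeded BSA without overlap in both, and AGEs also did so for NOP16. The others without overlap were NOP2, an rRNA methyltransferase, at 0.21, PES1, BOP1 and WDR12, which form 1 complex, at 0.22, 0.21 and 0.14, the helicase DDX18 at 0.19 and the processing factor NIP7 at 0.18. RRS1, NOP2, PPAN and LTV1 overlap another coding gene on the same strand, PPAN through the PPAN-P2RY11 readthrough gene, so their reads may be shared.

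**Figure D3:**
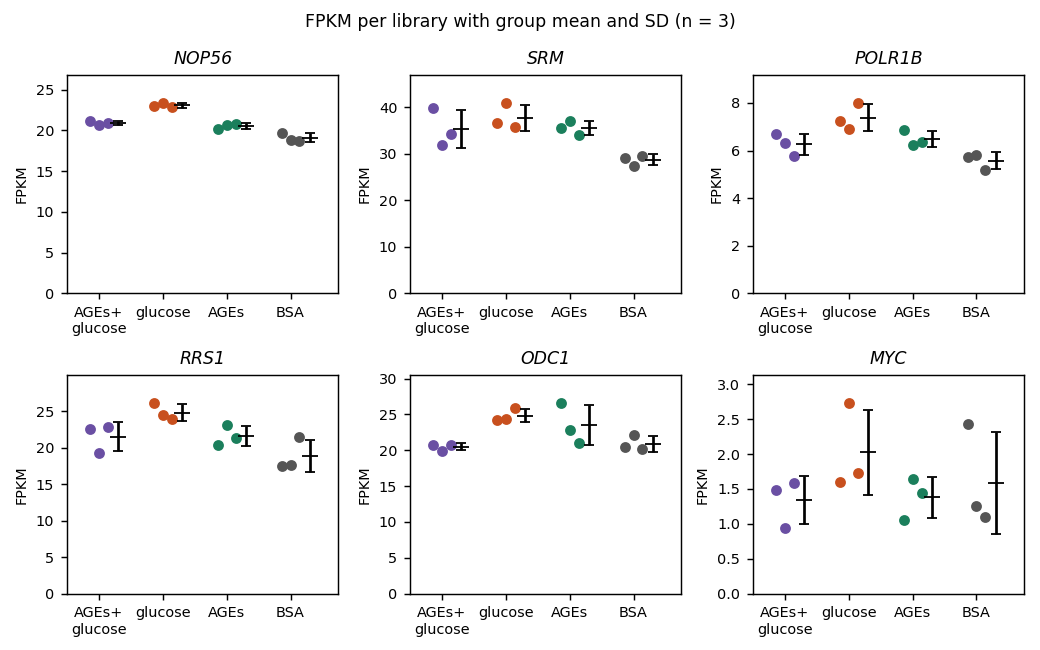
Points are FPKM in each library for NOP56, SRM, POLR1B, RRS1, ODC1 and MYC by group, and the bar beside them is the mean with its SD (n = 3). The 3 glucose points lie above the 3 BSA points in every panel except MYC.

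All 6 RNA polymerase I genes were above 0 under glucose, at a median of 0.07, the lowest of the role groups. POLR1B, the second largest catalytic subunit, stood out, with 6.69, 6.30 and 5.79 FPKM with AGEs and glucose, 7.25, 6.90 and 7.996 with glucose alone, 6.85, 6.22 and 6.36 with AGEs and 5.74, 5.81 and 5.19 with BSA. The glucose libraries were the highest and the log2 fold change was 0.35 ± 0.08 (SE), with an adjusted p of 0.161 by limma. POLR1C, a subunit shared with RNA polymerase III, had 6.36, 5.53 and 6.45 FPKM with AGEs and glucose, 5.90, 6.28 and 6.34 with glucose alone, 5.89, 5.85 and 5.42 with AGEs and 5.28, 5.97 and 5.50 with BSA. UBTF, which binds the rRNA gene promoter, had 22.5, 25.3 and 24.2 FPKM with AGEs and glucose, 24.4, 24.7 and 26.6 with glucose alone, 29.4, 24.3 and 24.4 with AGEs and 22.9, 27.2 and 25.1 with BSA. Both overlapped in all comparisons with BSA. RRN3, which recruits the polymerase to the promoter, had 10.2, 11.6 and 10.3 FPKM with AGEs and glucose, 13.7, 13.3 and 14.0 with glucose, 11.2, 13.1 and 12.8 with AGEs and 13.0, 13.3 and 13.2 with BSA. Every library with AGEs and glucose lay below every BSA library, at a log2 fold change of -0.28 ± 0.07 (SE) and an adjusted p of 0.646 by limma. Against glucose alone the RRN3 difference was -0.32 ± 0.07 (SE), with an adjusted p of 0.327 by limma. RRN3 has 2 pseudogenes named after it and overlaps PDXDC1 on the opposite strand.

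Of the 6 polyamine, nucleotide and related genes, 5 were above 0 under glucose, with a median of 0.15. SRM, which makes spermidine, had 39.8, 31.9 and 34.4 FPKM with AGEs and glucose, 36.6, 40.9 and 35.7 with glucose alone, 35.6, 37.0 and 34.1 with AGEs and 29.1, 27.4 and 29.6 with BSA. All 9 treated libraries exceeded the 3 BSA libraries, with log2 fold changes of 0.29 ± 0.09 under AGEs with glucose, 0.38 ± 0.09 under glucose and 0.30 ± 0.09 under AGEs (SE). The adjusted p-values by limma were 0.699, 0.160 and 0.958 in the same order. ODC1, the first enzyme of polyamine synthesis, had 20.8, 19.9 and 20.8 FPKM with AGEs and glucose, 24.2, 24.4 and 25.9 with glucose alone, 26.5, 22.8 and 21.1 with AGEs and 20.4, 22.1 and 20.1 with BSA. Glucose exceeded BSA without overlap, and AGEs with glucose lay below AGEs without overlap. IMPDH2, the rate-limiting enzyme of guanine nucleotide synthesis, had 66.8, 71.2 and 70.6 FPKM with AGEs and glucose, 73.2, 70.8 and 72.0 with glucose alone, 75.6, 69.8 and 64.8 with AGEs and 69.1, 72.6 and 65.2 with BSA, overlapping throughout. NME1, a nucleoside diphosphate kinase, had the largest log2 fold change of the members under glucose, 0.43 ± 0.15 (SE), yet 1 glucose library overlapped with BSA, and the NME1-NME2 readthrough gene may share its reads. PPRC1, a coactivator related to PGC-1, had 6.59, 6.70 and 7.48 FPKM with AGEs and glucose, 6.69, 7.35 and 8.14 with glucose alone, 9.07, 7.15 and 7.23 with AGEs and 8.25, 7.32 and 8.02 with BSA. NOLC1, IMP4 and PPRC1 were the members below 0 in all 3 comparisons with BSA.

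MYC itself was low, at 1.49, 0.945 and 1.59 FPKM with AGEs and glucose, 1.61, 2.73 and 1.74 with glucose alone, 1.05, 1.64 and 1.44 with AGEs and 2.43, 1.25 and 1.09 with BSA. Its groups overlapped with BSA, and 1 BSA library was the second highest of all. The log2 fold change under glucose was 0.24 ± 0.20 (SE), with an adjusted p of 0.759 by limma. It was 0.08 without glucose replicate 2 and 0.46 without BSA replicate 1. With AGEs and glucose, every MYC value lay below every value under glucose alone, at a log2 fold change of -0.36 ± 0.20 (SE) and an adjusted p of 0.845 by limma. Across the 12 libraries, DDX10, NOP56 and NIP7 had the highest Spearman rho with MYC of the 53 other members, at 0.67, 0.57 and 0.53, with Pearson r of 0.42, 0.51 and 0.52. Permutation p-values were 0.0208, 0.0594 and 0.0793 for rho and 0.171, 0.0889 and 0.0879 for r. After Benjamini-Hochberg adjustment over 53 relations each was 0.681 for rho and 0.877 for r. Without the 2 libraries farthest from the MYC median, r was 0.68, 0.65 and 0.57. Over the 53 members it then ran from -0.54 for NOLC1 to 0.81 for UTP15. The permutations ignored the groups, so differences between groups enter these relations.

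With AGEs and glucose together, 36 of 54 members were above 0 against BSA (66.7%, against 47.9% of all genes), with a median of 0.03. None passed limma's test, against 0.0103% of all genes tested, and at an unadjusted p under 0.05 there were 2 higher (against 2.95% of all genes) and 1 lower (against 2.52%). The groups did not overlap in 9 higher members (16.7%, against 8.51% of all genes) and 2 lower ones (against 9.14%). The higher members were FBL, NOP56, DKC1, NHP2, NOP10, DDX10, LTV1, SRM and NME1, and the lower ones were POLR1E, an RNA polymerase I subunit, and RRN3. All 4 H/ACA proteins were above 0 here, at a median of 0.21, while no large subunit factor was free of overlap with BSA.

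With AGEs alone, 37 of 54 members were above 0 against BSA (68.5%, against 49.5% of all genes), with a median of 0.04. None passed limma's test, against 0.0308% of all genes, and at an unadjusted p under 0.05 there were 3 higher (NOP16, POLR1B and SRM, against 2.73% of all genes) and 0 lower (against 2.01%). In 10 members every AGEs library lay above every BSA library (18.5%, against 4.82% of all genes), and in 0 below (3.98%). These were NOP56, DKC1, IMP3, TSR1, NOP2, NOP16, BOP1, POLR1B, SRM and NME1. The 3 comparisons share the same BSA libraries, so members that recur in them are not independent.

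**Figure D4:**
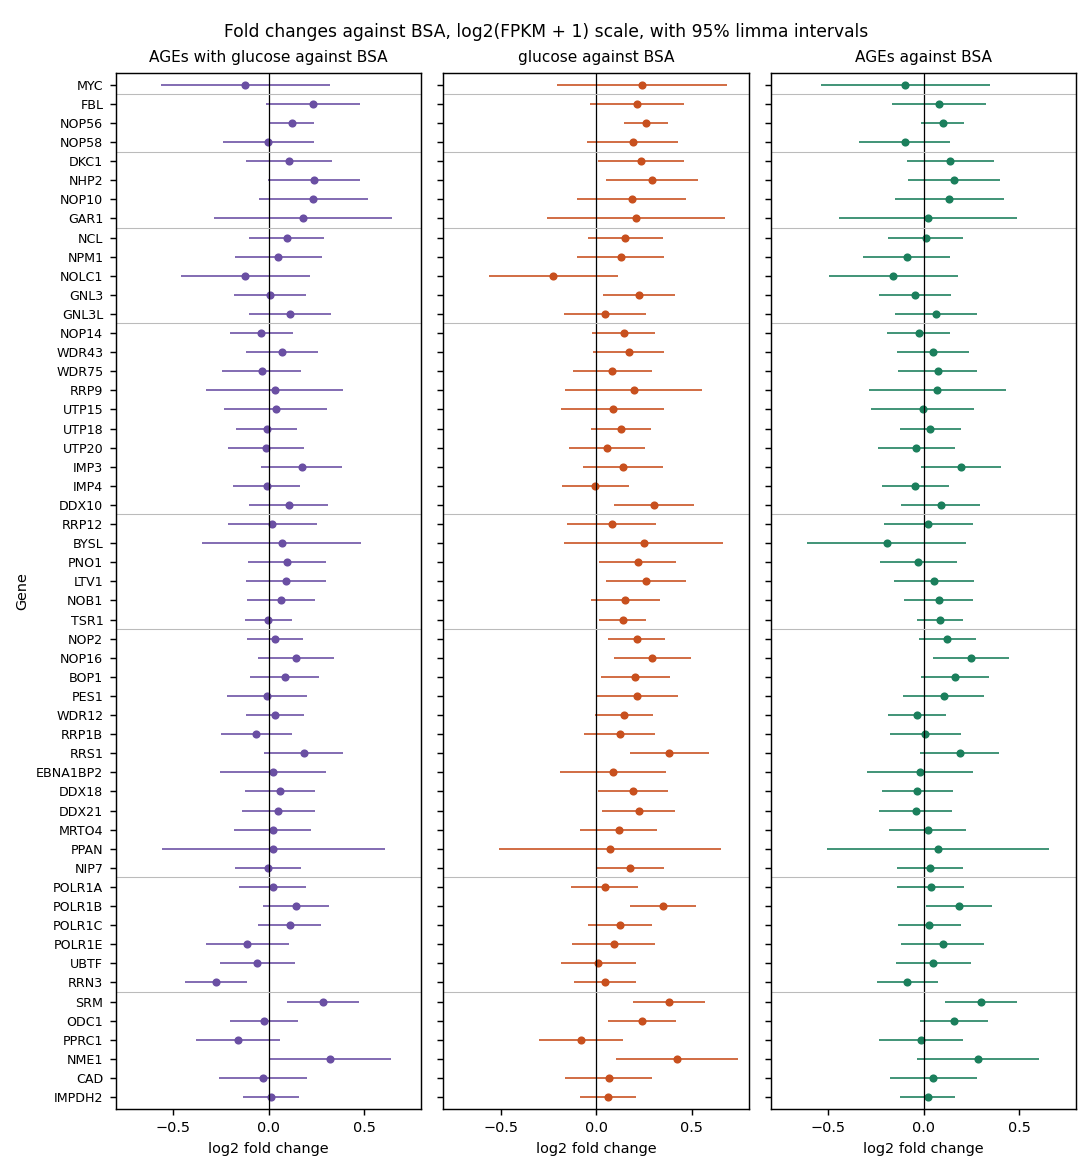
Points are log2 fold changes against BSA of the 54 members on the log2(FPKM + 1) scale with 95% limma intervals, in a panel each for AGEs with glucose, glucose and AGEs. Points lie above 0 for 36, 51 and 37 members in the order of the panels, and the glucose points range from -0.22 to 0.43.

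Set against glucose alone, AGEs with glucose gave lower values: 49 of 54 members were below 0 (90.7%, against 50.1% of all genes), with a median log2 fold change of -0.12. None passed limma's test, against 0.0308% of all genes, while 11 were lower at an unadjusted p under 0.05 (20.4%, against 2.66%) and 0 higher (against 3.39%). In 23 members the libraries with AGEs and glucose all lay below the glucose libraries (42.6%, against 7.86%), and in 0 above (7.67%). MYC had the lowest value of the members, at -0.36. RRN3, ODC1 and POLR1B were also among them, at -0.32, -0.26 and -0.21. The adjusted p-values by limma were 0.327, 0.674 and 0.768. This comparison shares the glucose libraries with glucose against BSA. On its label the glucose group has no added protein, so AGEs and added protein as such cannot be told apart here.

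Adding glucose on top of AGEs gave no common direction. Against AGEs, 25 of 54 members were above 0 (46.3%, against 50.4% of all genes), with a median of -0.00, and none passed limma's test, against 0.0103% of all genes. At an unadjusted p under 0.05 there were 0 higher (against 1.5% of all genes) and 2 lower (against 2.23%). The groups did not overlap in 0 higher members (4.01% of all genes) and in 4 lower ones (7.41%, against 4.81%), namely TSR1, NOP2, POLR1E and ODC1. All 3 box C/D proteins and all 5 nucleolar chaperones and GTPases were above 0, but without AGEs replicate 1 these counts were 2 of 3 and 3 of 5, and NCL and GNL3 were below 0, at -0.03 and -0.05. The large subunit factors were above 0 in 4 of 13 with and without that library, but the count was not stable. It was 8 without AGEs replicate 2, 6 without AGEs replicate 3 and 3 with library weights. With the GC and length trend removed it was 8, at a median of 0.02, against -0.04 in the main fit.

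The interaction term, the glucose effect with AGEs minus that without, was above 0 in 4 of 54 members (7.41%, against 50.2% of all genes), with a median of -0.15. None passed limma's test, against 0.0103% of all genes, and at an unadjusted p under 0.05, 11 were lower (20.4%, against 2.48% of all genes) and 0 higher (against 2.41%). ODC1 had the lowest value, -0.42 ± 0.11 (SE), with an adjusted p of 0.846 by limma. Averaged over both AGEs conditions, glucose gave 47 members above 0 (87.0%, against 50.1% of all genes) with a median of 0.07, and 0 passed limma's test against 0.041% of all genes. At an unadjusted p under 0.05, 14 were higher (against 3.86% of all genes) and 0 lower (against 5.14%). Averaged over both glucose conditions, AGEs gave 13 members above 0 (against 50% of all genes), with a median of -0.03, and 0 passed against 0.0103% of all genes. At an unadjusted p under 0.05, 0 were higher (against 3.3%) and 1 was lower (against 2.53%). The interaction and the glucose average contain glucose against BSA, so in them too the sugar and the missing albumin cannot be told apart. In the AGEs average, the reference carries BSA on its label only without glucose.

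The other genes of the pathway, given from lists of gene names, were also mostly above 0 under glucose against BSA, and limma called none of them. Of 44 other small subunit factors 36 were above 0, with a median of 0.06, and UTP11 had the smallest p, at a log2 fold change of 0.31. Of 43 other large subunit factors 39 were above 0, with a median of 0.11, led by RPF2 at 0.25. The RNA exosome, which trims precursor rRNA, had 12 of 14 genes above 0, with a median of 0.09, and EXOSC9 had the smallest p, at 0.38. Other RNA polymerase I genes were above 0 in 9 of 10 cases, at a median of 0.06, with TTF1 at 0.12. Purine and pyrimidine synthesis genes were above 0 in 10 of 16, at a median of 0.11, with ATIC at 0.21, and other polyamine genes in 6 of 9, at 0.06, with OAZ2 at -0.56. The 10 MYC dimer partners and antagonists form a mixed list with no single direction to look for, and 3 were above 0, at a median of -0.03. At an unadjusted p under 0.05, 1 was higher and 1 was lower. MXD4, which competes with MYC for MAX, had a log2 fold change of -0.30. MAX had the smallest p of this list in the other comparisons with BSA, at 0.61 with AGEs and 0.72 with AGEs and glucose. Its adjusted p-values by limma were 0.967 and 0.816.

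**Figure D5:**
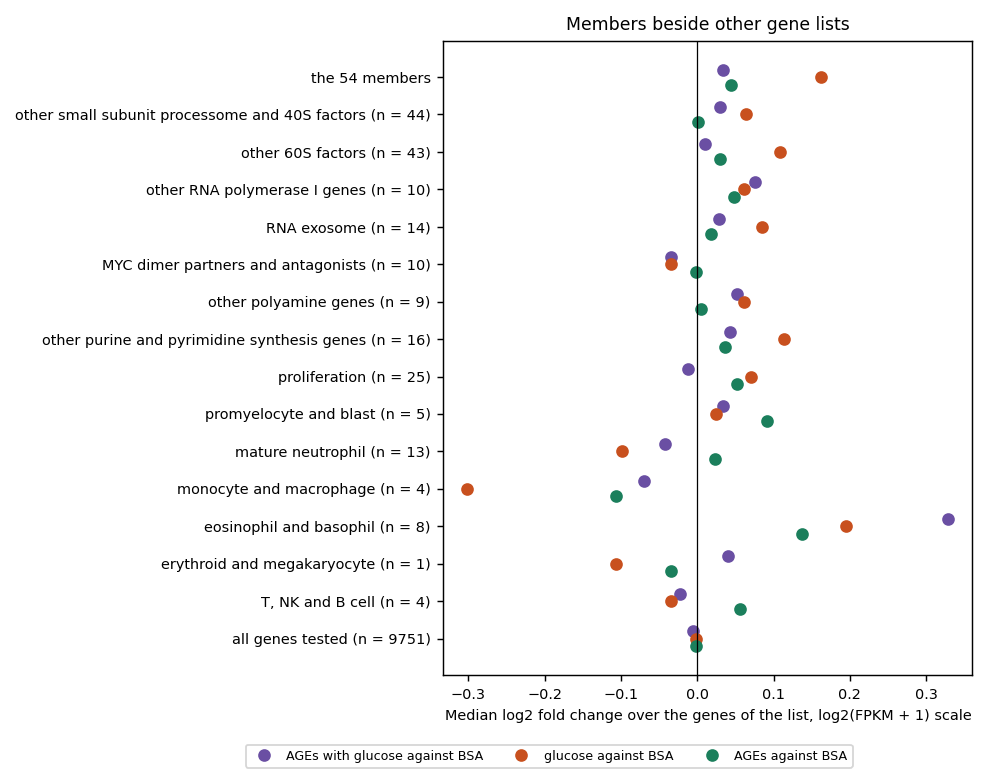
Points are the median log2 fold change of each gene list on the log2(FPKM + 1) scale for AGEs with glucose, glucose and AGEs, each against BSA. The glucose median of the 54 members is 0.16, those of the other lists run from -0.30 for 4 monocyte genes to 0.20 for 8 eosinophil and basophil genes, and that of all 9751 genes is -0.00.

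Summed FPKM of markers of growth and of cell type also differed between some groups, though a few abundant genes can dominate a sum. Limma called none of the markers under glucose. The 25 proliferation genes summed to 586 to 595 FPKM with AGEs and glucose, 631 to 644 with glucose alone, 617 to 628 with AGEs and 589.8 to 593 with BSA, with 19 of the 25 above 0 under glucose. The glucose and AGEs libraries lay above BSA without overlap. The 14 neutrophil markers summed to 1578 to 1685 FPKM under glucose and 1689 to 1732 under BSA, and 4 monocyte genes (CSF1R, CD68, FCGR1A and C1QA) to 16.8 to 18.7 under glucose and 22.3 to 23.5 under BSA. Of the markers tested, 4 of 13 neutrophil genes and 1 of 4 monocyte genes were above 0 under glucose. The 8 promyelocyte genes in the table, of 10, summed to 126 to 135 under glucose and 139 to 175 under BSA, yet 3 of the 5 tested were above 0, at a median log2 fold change of 0.02. Eosinophil and basophil genes summed to 2708 to 2793 FPKM with AGEs and glucose, 2401 to 2637 with glucose alone, 2442 to 2607 with AGEs and 2198 to 2481 with BSA. Against BSA, 7 of the 8 were above 0 with AGEs and glucose, at a median of 0.33 and with 5 at an unadjusted p under 0.05, and 7 of 8 were above 0 with glucose alone, at a median of 0.20, which exceeds that of the members. Most of this sum came from CLC, which encodes galectin-10, a protein abundant in eosinophils. The genes with the smallest p under glucose were MCM4 (log2 fold change 0.23) for proliferation and CSF3R (-0.41) for neutrophils. They were CSF1R (-0.49) for monocytes, MPO (-0.27) for promyelocytes and PRG2 (0.41) for eosinophils and basophils. CSF3R had an adjusted p of 0.0696 by limma, smaller than the 0.138 of NOP56. The part of these marker shifts in the member values was not tested.

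Some members also host snoRNA genes, which the choice of genes did not use. In GENCODE release 29, 10 of the 54 (18.5%) held snoRNA genes within their span, 29 in all, against 1.96% of 9409 coding genes tested. These hosts were NOP56, NOP58, DKC1, NCL, GNL3, WDR43, TSR1, PPAN, POLR1C and ODC1, and all 10 were above 0 under glucose, at a median of 0.18, as were 41 of the other 44, at 0.15. The 21 members with CACGTG in a promoter window had a median of 0.21 under glucose, with 20 above 0. The 23 without it had a median of 0.14, with 22 above 0. The order was reversed in the other comparisons with BSA. Members with CACGTG had medians of 0.04 with AGEs and 0.03 with AGEs and glucose, and members without it 0.07 and 0.05. These are descriptions with no test. Opposite-strand coding genes overlapped 16 members, and 14 members had named pseudogenes.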

How the data were processed

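The deposited table holds FPKM values per gene in 12 libraries, per the file headers. Tools listed without role or order in the submitters' processing notes are STAR 2.5.2b, HISAT2 2.0.5, cutadapt and StringTie, with build hg19. No source used here gives read depth, annotation or strand setting. Rows with at least 1 FPKM in 3 libraries were kept (9751 of 10465). Log2(FPKM + 1) was fitted with limma 3.58.1 in R 4.3.3 (trend and robust moderation, group means, all 12 libraries) and p-values were Benjamini-Hochberg adjusted over all genes; the pseudocount understates changes of low genes. The fit was tested on simulated data. Members and lists were chosen with earlier results of these data known. Library values are given for MYC, the 2 members of each role with the smallest p under glucose, the most abundant member of each role, and members below 0 in all 3 comparisons with BSA; other members shown per library or by name outside this rule were chosen after their values were seen. Of each list described in the text, the gene with the smallest p under glucose is named. MYC relations used 100000 permutations, two-sided. The labels do not say that libraries are separate cultures, so p-values reflect only library-to-library spread, possibly technical. Alternatives covered pseudocount, filter, scaling, library weights, replicate block, groups fitted and libraries left out; removing a GC and length trend, and leaving out AGEs replicate 1 with glucose replicate 3, were chosen after seeing the data.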

Additional observations from a re-analysis of the deposited data

Results flagged for a closer look

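In 3 members, glucose against BSA, which differ in albumin as well as sugar on their labels, and AGEs with glucose against AGEs pointed opposite ways. Every glucose library lay above every BSA library, while every library with AGEs and glucose lay below every AGEs library. This was so for 5.56% of the members and for 29 of the 9751 genes tested (0.297%). The interaction log2 values were -0.4215 for ODC1, -0.3033 for NOP2 and -0.2255 for TSR1. None passed limma's interaction test, with adjusted p-values of 0.846, 0.893 and 0.936 in that order. NOP2 had 9.41, 9.30 and 9.25 FPKM with AGEs and glucose, 10.9, 10.0 and 11.1 with glucose, 10.8, 9.45 and 9.82 with AGEs and 9.32, 8.93 and 9.03 with BSA. NOP2 shares its span with another coding gene on the same strand, and TSR1 with SGSM2 and SRR on the opposite strand.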

How the results depend on the processing

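The median under glucose against BSA stayed positive in all alternatives run, between 0.144 and 0.197, with 47 to 52 members above 0. Library weights called 3 members there, namely NOP56 (adjusted p 0.0221), SRM (0.0455) and RRS1 (0.0479), where 127 of 9751 genes were called in all. NOP56 was the 1 member called without AGEs replicate 1 and glucose replicate 3 (0.0393, with 73 of 9751 genes called) and the 1 called after removing a GC and length trend (0.0362, with 41 of 9424). Library weights also left 3 members above 0 in AGEs with glucose against glucose, and 20 for the AGEs main effect. Without AGEs replicate 1 and glucose replicate 3, 28 members were higher under glucose without overlap, against 16.1% of all genes, and 21 were above 0 for the AGEs main effect. The interaction median was -0.129 with quantile normalization, -0.189 with library weights and -0.1802 without those libraries, with 8 members above 0 under quantile normalization, 10 without those libraries and 7 after the GC and length correction. Leaving out each library in turn, medians ran from 0.144 to 0.197 for glucose against BSA, 0.0234 (without BSA replicate 1) to 0.0633 for AGEs against BSA, 0.018 to 0.069 for AGEs with glucose against BSA, -0.014 to 0.024 for AGEs with glucose against AGEs, -0.137 to -0.113 for AGEs with glucose against glucose, 0.066 to 0.094 for the glucose main effect, -0.0359 to -0.0171 (without glucose replicate 3) for the AGEs main effect and -0.187 to -0.145 for the interaction. Members above 0 ran from 30 to 40 for AGEs against BSA, from 10 to 18 for the AGEs main effect, from 4 to 9 for AGEs with glucose against glucose and from 3 to 7 for the interaction. Those higher under glucose than BSA without overlap ran from 18 to 28, the highest without glucose replicate 3. The share of all genes was 7.92% in the main fit and 16.1% without that library, and a group with fewer libraries has fewer chances to overlap. The cause of these changes was not tested.

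No pairing of samples by replicate number was seen. Deviations of same-numbered libraries correlated at -0.21 to 0.13, over 0.1 in 2 of 18 pairs, and 3 of 12 libraries correlated best with their own number. The labels do not state pairing, and with 3 libraries per group this check cannot exclude it. With the replicate block, 0 members were called in any comparison, the glucose median was 0.16, and 2 genes of all 9751 were called for glucose against BSA, against 10 without it.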
